A study of Mus musculus with 2 samples.

Results

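Glutathione transferases attach the tripeptide glutathione to reactive compounds, which makes them soluble and ready for export from the cell. The 9 genes described here, of 33696 in the deposited matrices, were chosen by name: Gsto1, Gstm1, Gstm2, Gsta4, Gstp1, Gstt1, Mgst1, Mgst2 and Mgst3. All 9 were found in both libraries and all 9 passed the low-value limit in tumour cells, Gsto1 and Mgst2 through the chemoresistant library only. They were followed across cell classes set by marker counts, between the 2 libraries, and within single tumour cells.

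The soluble enzymes of the family are sorted into mu (Gstm), alpha (Gsta), pi (Gstp), theta (Gstt) and omega (Gsto) classes, while the microsomal enzymes Mgst1, Mgst2 and Mgst3 sit in membranes. Mu and alpha enzymes are classical detoxification enzymes, omega enzymes act mainly as thiol transferases that remove glutathione from proteins, and Mgst2 can also make leukotriene C4. Cisplatin, a platinum drug that crosslinks DNA, can itself be bound by glutathione, and the family has long been studied in drug-resistant tumours.

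ID8 cells come from the mouse ovarian surface epithelium and are a common model of ovarian cancer. The study compared treatment-naive primary tumours with tumours exposed to cisplatin and labelled chemoresistant. Strain, age, the number of tumours pooled, the dose and its schedule are not given in the sources used here. Each group is 1 library of pooled tumour suspensions, so animals cannot be told apart, no difference between the libraries has a replicate, and no p-value is given. Every interval is a 95% interval of counting error only, exact Poisson for levels and Clopper-Pearson for shares of cells. The Poisson intervals treat counted RNA molecules as independent and leave out the spread between cells, so they are too narrow where cells are uneven. Levels whose intervals do not overlap are apart in counting error only. Whether they differ beyond the spread between cells was not tested.

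After filtering, 11508 primary and 13130 chemoresistant cells remained, at a median of 5422.5 and 4156 unique molecular identifiers (UMIs, which count RNA molecules) per cell, and 38 barcode sequences occurred in both libraries. The tumour class, set by epithelial and mesothelial markers, held 623 primary cells (5.41%, median 37756 UMIs) and 2758 chemoresistant cells (21.0%, median 21042 UMIs). Host mesothelial cells were not separated from tumour cells, and their part in the tumour class was not tested. In this class 15 and 16 of the 22 markers lay more than 1 above the other classes on the log2 scale, with Krt18 at 577 and 862 CPM (counts per 1000000 UMIs) and Wt1 at 820 and 552 CPM. Its 10 leading genes, headed by Kcnd2, Tm4sf1 and Cst12, held 1 of those markers in the primary and 0 in the chemoresistant library, and 0 markers of any other class in both. A further 10.2% and 10.3% of cells carried no clear class.

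The genes lie at several places of the GRCm38 genome in the GENCODE vM21 annotation. Gsto1 occupies chr19:47854970-47864790 on the plus strand, 743 bases before Gsto2. Mgst2 occupies chr3:51660360-51682677 on the plus strand. Gstm2 (chr3:107981702-107986453) and Gstm1 (chr3:108012255-108017973) lie on the minus strand 25.8 kb apart, inside a cluster of 7 Gstm genes that spans 149.1 kb. The 250 bases before the start sites of the 4 genes that differed most between the libraries are shown because Gstm1 and Gstm2 were lower and Gsto1 and Mgst2 higher in the chemoresistant tumour cells. They are from RefSeq (GRCm38.p6), at chr19:47854723-47854972 for Gsto1, chr3:51660929-51661178 for Mgst2, chr3:107986421-107986670 (minus strand) for Gstm2 and chr3:108017819-108018068 (minus strand) for the more downstream of the 2 Gstm1 starts. Capitals mark matches to 4 motifs searched on both strands.
Gsto1: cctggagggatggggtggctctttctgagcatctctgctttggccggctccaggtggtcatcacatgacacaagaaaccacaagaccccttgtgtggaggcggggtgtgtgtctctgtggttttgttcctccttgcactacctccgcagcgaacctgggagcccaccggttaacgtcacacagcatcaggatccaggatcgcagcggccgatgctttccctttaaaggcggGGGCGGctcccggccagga
Mgst2: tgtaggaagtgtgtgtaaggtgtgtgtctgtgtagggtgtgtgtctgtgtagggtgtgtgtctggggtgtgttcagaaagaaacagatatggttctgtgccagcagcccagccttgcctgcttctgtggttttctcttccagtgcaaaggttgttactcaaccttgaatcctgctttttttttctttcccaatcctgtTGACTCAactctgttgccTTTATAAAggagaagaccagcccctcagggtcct
Gstm1: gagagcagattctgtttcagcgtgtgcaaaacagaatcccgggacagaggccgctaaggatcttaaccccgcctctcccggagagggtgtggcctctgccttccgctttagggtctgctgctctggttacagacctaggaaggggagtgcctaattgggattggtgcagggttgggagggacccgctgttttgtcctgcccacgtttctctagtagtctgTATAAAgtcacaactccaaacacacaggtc
Gstm2: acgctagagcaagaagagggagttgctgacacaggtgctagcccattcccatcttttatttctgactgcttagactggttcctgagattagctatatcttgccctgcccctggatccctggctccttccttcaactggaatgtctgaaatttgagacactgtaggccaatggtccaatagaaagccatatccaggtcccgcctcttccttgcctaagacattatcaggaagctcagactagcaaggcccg

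The motifs were the core of the antioxidant response element (TGACNNNGC), the AP-1 element (TGANTCA), the GC box (GGGCGG) and the TATA box (TATAAA), which occur in 10.2%, 6.75%, 32.7% and 12.4% of 32851 mouse promoter windows of the same length. The Gsto1 window held 1 GC box, and the Mgst2 window 1 AP-1 match (TGACTCA) and TATA box matches on both strands that overlap. The Gstm1 window held 1 TATA box and the Gstm2 window no match to any of the 4. Of the other members with an entry, Gstp1 held an AP-1 match (TGAGTCA) and a GC box, Mgst1 an antioxidant response element core (GCACGGTCA on the opposite strand, the one such match) and a GC box, Mgst3 held 2 GC boxes and Gstt1 no match. Gsta4 had no entry. A match describes these letters only.

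In tumour cells Gsto1 and Mgst2 were higher, and Gstm1 and Gstm2 lower, in the chemoresistant library. A gene was called different when its CPM, with 5 CPM added, differed at least 1.5-fold and reached 10 CPM in 1 library. By that rule 2 of the 9 members were higher, 2 lower and 5 within 1.5-fold, while 5.07% of the 9157 genes tested were higher and 10.8% lower. Gsto1 and Mgst2, at 6.35 and 5.19 CPM in primary tumour cells, passed the 10 CPM limit only through the chemoresistant library, where they were higher. In every class a tested gene under 10 CPM in 1 library passed through the other. The median log2 ratio was 0.16 over the 9 members and -0.12 over all genes tested.

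Gsto1, the omega-class enzyme, stood at 6.35 CPM in primary (170 UMIs, interval 5.43 to 7.38) and 64.2 CPM in chemoresistant tumour cells (4616 UMIs, 62.4 to 66.1). The ratio was 6.10-fold with 5 CPM added to each level, and it depends on the amount added (log2 2.61, or 3.15 with 1 CPM added). Mgst2 stood at 5.19 CPM (139 UMIs, 4.36 to 6.13) and 33.7 CPM (2423 UMIs, 32.4 to 35.1), 3.80-fold with 5 CPM added (log2 1.93, or 2.49 with 1 CPM added). For both genes the intervals of the libraries lie far apart. At full depth 17.3% of primary tumour cells had a Gsto1 UMI and 16.4% an Mgst2 UMI, against 32.1% and 36.5% of the less deeply sequenced chemoresistant ones.

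Gstm1 stood at 3896 CPM (3873 to 3920) in primary and 1271 CPM (1263 to 1279) in chemoresistant tumour cells, 3.06-fold lower. Gstm2 stood at 1920 CPM (1903 to 1937) and 597 CPM (591 to 602), 3.20-fold lower. Both mu-class genes were still detected in most chemoresistant tumour cells, Gstm1 in 94.996% and Gstm2 in 90.6%, against 98.9% and 97.8% of primary ones.

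The other 5 members were within 1.5-fold. Mgst1, a membrane enzyme with peroxidase activity, stood at 831 CPM (820 to 842) and 1218 CPM (1209 to 1226), 1.46-fold, the nearest of them to the limit. It passed when ratios were centred on the median gene (log2 0.67), among cells with a Cxcl1 UMI (0.66) and in tumour cells below the median phagocyte marker share (0.59). Over all alternative settings its log2 ratio ran from -0.38 to 0.67, so its direction was not the same in each. Gsta4, which acts on the lipid peroxidation product 4-hydroxynonenal, stood at 198 CPM (193 to 203) and 236 CPM (233 to 240). Gstp1, the pi-class enzyme, stood at 121 CPM (117 to 126) and 106 CPM (104 to 109). Mgst3 stood at 53.9 CPM (51.1 to 56.7) and 60.7 CPM (58.9 to 62.5), a 1.12-fold difference. Gstt1, the theta-class enzyme, stood at 16.8 CPM (15.3 to 18.4) and 10.9 CPM (10.1 to 11.7), and was past 1.5-fold lower when cells were averaged equally (log2 -0.71), among cells with no UMI of the division genes Mki67, Top2a or Cdk1 (-0.60) and among cells of 10000 to 40000 UMIs (-1.11). Among cells with no phagocyte marker UMI, 9 of them primary, its log2 ratio was 2.13.

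Depth differed between the libraries, so the folds were also taken in a narrower range of depth. Among tumour cells of 10000 to 40000 UMIs, with medians of 24769.5 and 21766 UMIs, the log2 ratio was 2.25 for Gsto1, 2.23 for Mgst2, -1.66 for Gstm1 and -1.87 for Gstm2. All 16 markers of mononuclear phagocytes, a class with Gsto1 at 64.2 and 72.5 CPM, were above 0 in tumour cells, at a summed 371 CPM in primary and 366 CPM in chemoresistant cells, which is 1.75% and 1.53% of the level in phagocytes. In tumour cells below the median phagocyte marker share the Gsto1 log2 ratio was 2.66, beside 2.61 in all.

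Free RNA also puts UMIs into cells that do not make a gene, so shares were set beside B cells, which lie at a median of 4306 and 1498 UMIs, with each cell thinned to 1000 UMIs. Cells under 1000 UMIs were left out. These were 24 primary and 534 chemoresistant B cells, 3 and 45 tumour cells and 64 and 126 phagocytes. A Gsto1 UMI was then found in 0.968% (0.356 to 2.09%) of primary tumour cells and 0.696% (0.431 to 1.06%) of primary B cells. These intervals overlap. At full depth 623 primary tumour cells held 170 Gsto1 UMIs and 3043 primary B cells held 137. Thinning cells of unlike depth to 1000 UMIs does not hold free RNA per cell equal, and B cells may make Gsto1 themselves. The shares therefore do not measure free RNA, and its part was not tested. In the chemoresistant library a Gsto1 UMI was found in 4.46% (3.71 to 5.31%) of tumour cells and 1.78% (1.29 to 2.39%) of B cells. An Mgst2 UMI was found in 2.36% (1.82 to 3.003%) of chemoresistant tumour cells, 1.53% (1.08 to 2.11%) of B cells and 0.593% (0.380 to 0.881%) of phagocytes. The thinned tumour and B cell intervals overlap for Mgst2, while the phagocyte interval lies below both. At full depth the chemoresistant levels did not overlap, at 33.7 CPM (32.4 to 35.1) in tumour cells and 17.6 CPM (14.2 to 21.7) in B cells. In the primary library Mgst2 was found in 0.484% (0.0999 to 1.41%) of tumour cells and 1.23% (0.864 to 1.69%) of B cells. The full-depth primary levels were 5.19 CPM in tumour cells and 10.7 CPM in B cells.

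**Figure D1:**
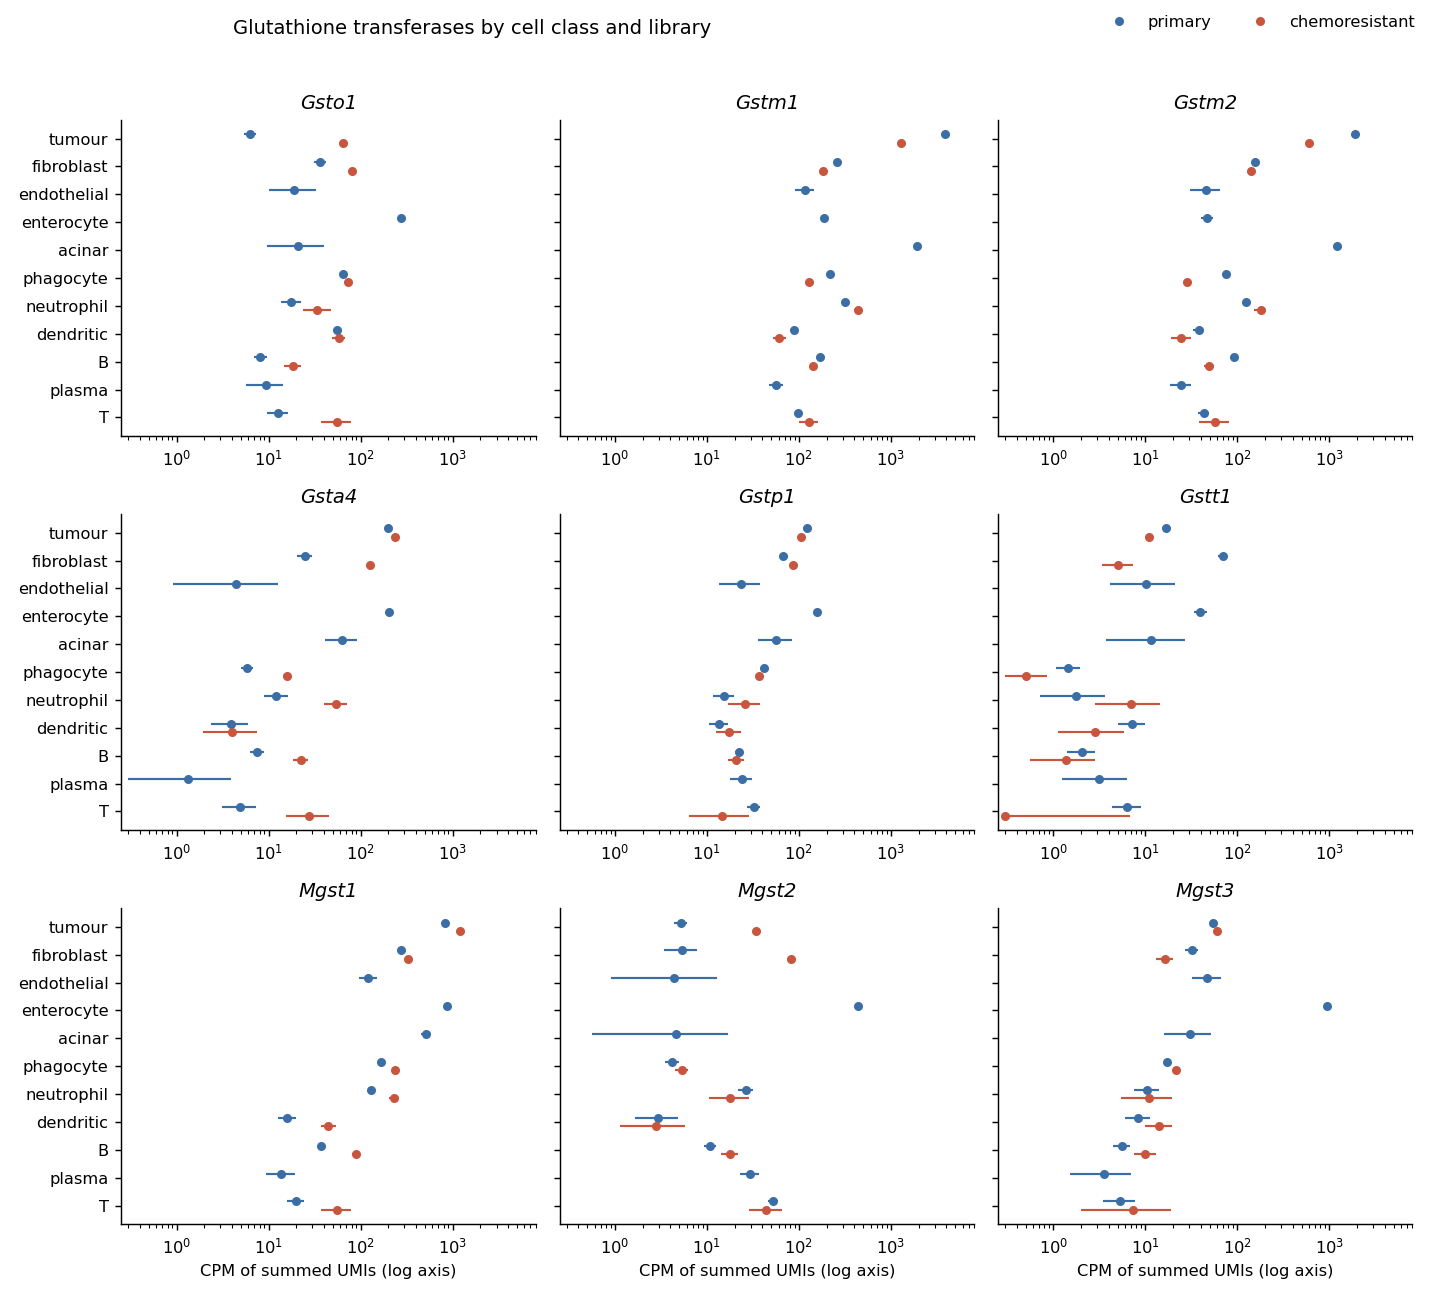
Level of each of the 9 transferases (CPM of summed UMIs, log axis) in each cell class of at least 50 cells, blue for the primary and red for the chemoresistant library, with 95% counting intervals as bars. A level of 0 (Gstt1 in chemoresistant T cells) is drawn at the left edge. Gstm1 and Gstm2 are highest in tumour cells in both libraries, and enterocytes, found in the primary library, hold the highest Gsto1, Mgst2 and Mgst3.

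Across cell classes the members had different homes. The tumour class held the highest level of a member in 9 of 18 cases (9 genes in 2 libraries). Most of these cases were in the chemoresistant library, where enterocytes and acinar, endothelial and plasma cells were too few for a level. Gstm1 and Gstm2 were highest in tumour cells in both libraries. In the primary library the next class was pancreatic acinar cells, at 1905 CPM for Gstm1 and 1217 CPM for Gstm2, followed for Gstm1 by neutrophils at 314 CPM. The acinar class rests on 74 cells at a median of 2280.5 UMIs, of which 39.2% had a Gstm1 and 35.1% a Gstm2 UMI, so a minority of cells carried its summed levels. In the chemoresistant library neutrophils came next, at 436 CPM for Gstm1 and 179 CPM for Gstm2. Of these 729 neutrophils, at a median of 909 UMIs, 17.7% had a Gstm1 and 9.60% a Gstm2 UMI. A minority of cells carried these summed levels too. Dendritic cells had the lowest values, at 61.2 and 24.6 CPM, the latter overlapping phagocytes (28.2 CPM).

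Gsto1 had its highest primary level in enterocytes, the absorptive cells of the gut, at 275 CPM (258 to 292, 120 cells), followed by phagocytes at 64.2 CPM and dendritic cells at 55.8 CPM, whose intervals overlap. Tumour cells had the lowest value of the 11 primary classes, with an interval that overlaps those of B cells (8.17 CPM) and plasma cells (9.29 CPM). In the chemoresistant library fibroblasts (81.5 CPM) and phagocytes (72.5 CPM) overlapped at the top. Tumour cells came next, overlapping dendritic cells (57.6 CPM) but not phagocytes in counting error. The 4616 Gsto1 UMIs of chemoresistant tumour cells lay in 32.1% of those cells. The order of phagocytes and tumour cells was not tested against such spread between cells. Gsto1 in phagocytes differed 1.12-fold between the libraries.

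Mgst2 in primary cells was also highest in enterocytes (436 CPM, 415 to 458), followed by T cells (51.8 CPM) and plasma cells (29.2 CPM), and was seventh of 11 in tumour cells. In the chemoresistant library it was highest in fibroblasts (82.1 CPM), then T cells (44.1 CPM) and tumour cells, the last pair with overlapping intervals. Mgst3, a microsomal enzyme with peroxidase activity, was far higher in enterocytes (942 CPM, 911 to 973) than in tumour cells, the next class, whose interval overlaps that of endothelial cells, and 60.7 CPM in chemoresistant tumour cells was the highest level there. Mgst1 in primary cells was 865 CPM in enterocytes and 831 CPM in tumour cells, with overlapping intervals. Gsta4 likewise stood at 202 CPM in enterocytes and 198 CPM in tumour cells. Gstp1 was higher in enterocytes (157 CPM) than in primary tumour cells, and Gstt1 was highest in primary fibroblasts (69.4 CPM). Gstp1, Gsta4, Mgst1 and Gstt1 were highest in tumour cells in the chemoresistant library, the last with an interval that overlaps that of neutrophils (6.99 CPM). Enterocytes numbered 3 in the chemoresistant library, too few for a level.

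The higher Gsto1 of the chemoresistant library was not confined to tumour cells. It stood at 8.17 CPM (137 UMIs, 6.86 to 9.65) in primary and 18.2 CPM (93 UMIs, 14.7 to 22.3) in chemoresistant B cells. T cells held 12.5 CPM (61 UMIs, 9.56 to 16.1) and 55.2 CPM (30 UMIs, 37.2 to 78.8), and neutrophils 17.7 CPM (70 UMIs, 13.8 to 22.4) and 33.9 CPM (34 UMIs, 23.5 to 47.4). These 3 classes were past 1.5-fold. The chemoresistant B cell and neutrophil intervals lie below the tumour level and the T cell interval spans it, while phagocytes and dendritic cells were within 1.5-fold. The same 3 classes held more Gsta4 in the chemoresistant library, at 7.57 and 22.5 CPM in B cells, 4.92 and 27.6 CPM in T cells and 12.1 and 53.9 CPM in neutrophils. Mgst1 was higher in them too, at 37.1 and 88.3 CPM in B cells, 19.7 and 55.2 CPM in T cells and 131 and 232 CPM in neutrophils, and also in dendritic cells (16.0 and 44.7 CPM). Gstp1 was higher in neutrophils (15.2 and 25.9 CPM) and lower in T cells (32.2 and 14.7 CPM, the latter 8 UMIs), and Mgst2 was within 1.5-fold in all 3.

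In B cells 3 of 7 tested members were higher and 1 (Gstm2) lower, where 5.24% of all tested genes were higher and 8.61% lower. In T cells 3 of 7 were higher and 1 lower, where 12.2% of genes were higher and 15.2% lower. In neutrophils 4 of 8 were higher and 0 lower, where 16.0% of genes were higher and 14.2% lower. In dendritic cells 1 of 6 was higher and 0 lower, where 3.32% of genes were higher and 16.4% lower. The part of free RNA in the levels of these classes was not tested.

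In fibroblasts both Gsto1 and Mgst2 were higher in the chemoresistant library. Mgst2 stood at 5.29 CPM (24 UMIs, 3.39 to 7.87) in 282 primary and 82.1 CPM (453 UMIs, 74.7 to 89.99) in 353 chemoresistant fibroblasts, 8.46-fold. Gsta4 stood at 24.9 CPM (20.5 to 30.0) and 127 CPM (118 to 137), and Gsto1 at 36.2 CPM (30.8 to 42.1) and 81.5 CPM (74.2 to 89.4). Gstt1 went from 69.4 CPM (62.0 to 77.6) to 5.07 CPM (3.37 to 7.33) and Mgst3 from 31.7 CPM (26.8 to 37.4) to 16.3 CPM (13.1 to 20.04). So 3 of 9 members were higher and 2 lower, where 9.92% of 9783 genes were higher and 27.7% lower, so many genes differed in this class. The class was led by Mgp, Slit3 and C3 beside collagens in the primary and by Timp1, Spp1 and Tagln beside collagens in the chemoresistant library, and 15 and 11 of its 15 markers lay more than 1 above the other classes on the log2 scale. The part of that difference in cell makeup in these folds was not tested.

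In phagocytes 7 members were tested, 1 was higher (Gsta4, 5.84 and 15.9 CPM) and 2 lower (Gstm1, 219 and 127 CPM; Gstm2, 74.4 and 28.2 CPM), where 2.49% of 8626 genes were higher and 8.67% lower. B cells held Gstm1 at 169 and 141 CPM (within 1.5-fold) and Gstm2 at 92.5 and 49.2 CPM (1.80-fold lower). The part of free tumour RNA in the phagocyte levels was not tested.

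**Figure D2:**
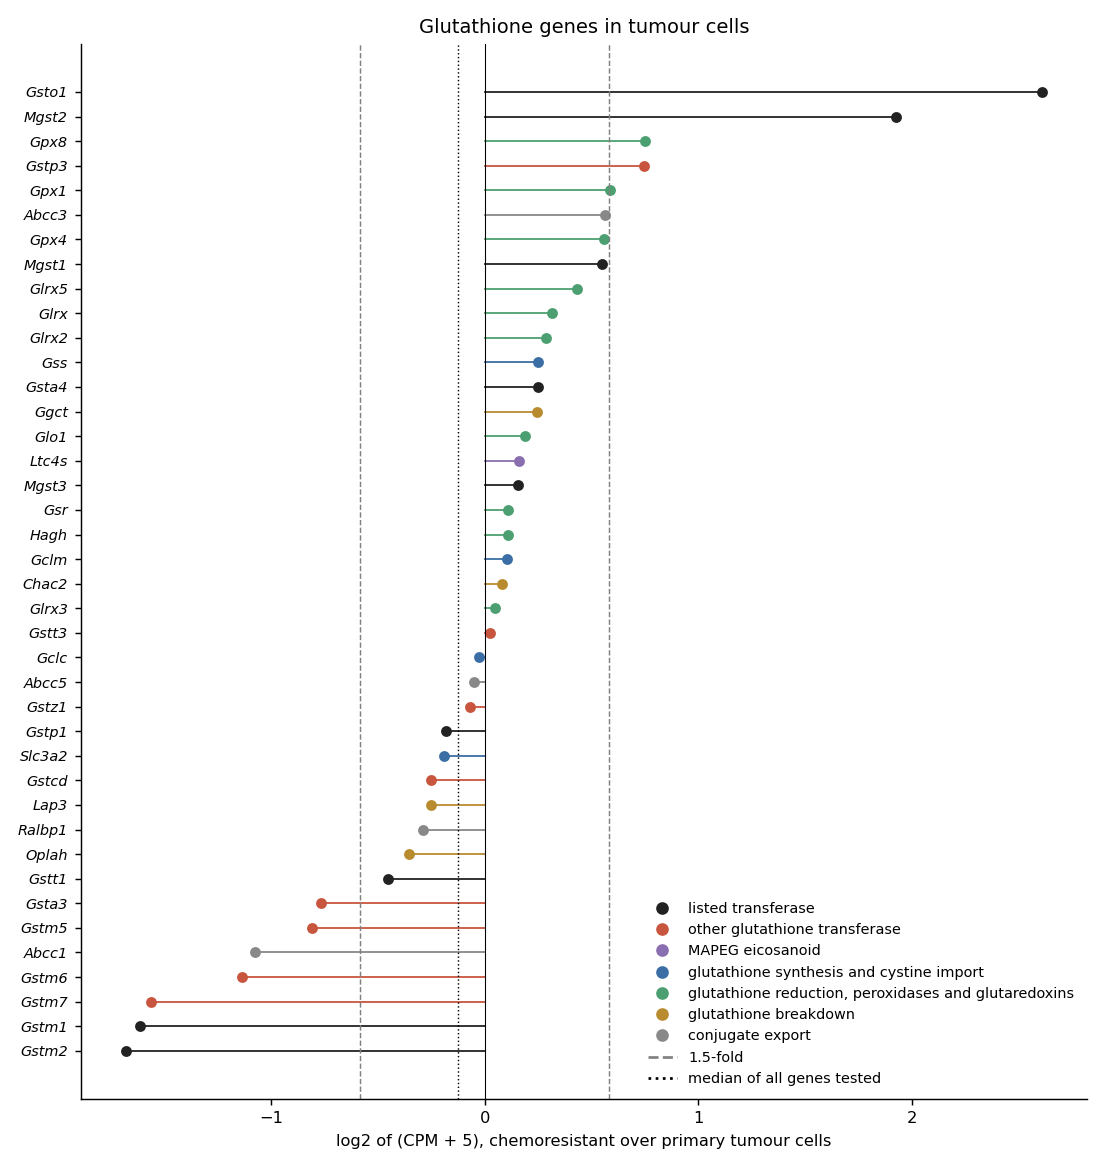
Log2 ratio of (CPM + 5) between chemoresistant and primary tumour cells for every listed glutathione gene with at least 10 CPM in 1 library, coloured by list. Gsto1 and Mgst2 lie furthest to the right and Gstm2, Gstm1, Gstm7 and Gstm6 furthest to the left, while most genes lie between the dashed 1.5-fold lines. The dotted line is the median of all genes tested.

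Of 57 other listed genes 31 were tested in tumour cells, 25 were under 10 CPM and 1 (Gsta13) was not found. Of the 31, 3 were higher, 5 lower and 23 within 1.5-fold, with a median log2 ratio of 0.080. Among all 9157 genes tested 5.07% were higher and 10.8% lower, and 7707 were within 1.5-fold. The lower genes included 3 mu-class relatives, Gstm7 at 51.5 and 14.2 CPM (2.95-fold), Gstm6 at 80.9 and 34.1 CPM (2.20-fold), Gstm5 at 51.0 and 26.9 CPM (1.75-fold) and the alpha-class Gsta3 at 43.0 and 23.3 CPM (1.70-fold). The fifth was Abcc1, a pump for glutathione conjugates, at 112 and 50.7 CPM (2.10-fold). The higher genes were the pi-class Gstp3 at 134 and 229 CPM (1.68-fold) and the peroxidases Gpx8 at 13.4 and 26.1 CPM (1.69-fold) and Gpx1 at 268 and 406 CPM (1.503-fold), the last just past the limit.

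All 4 tested genes of glutathione synthesis and cystine import were within 1.5-fold, as most of all genes were. Gclm, a subunit of the enzyme that starts glutathione synthesis, stood at 89.7 and 96.8 CPM, and Gsr, which recycles oxidised glutathione, at 83.0 and 90.1 CPM. The glutaredoxin Glrx3 (127 and 132 CPM) and Hagh (46.9 and 51.1 CPM), which works in methylglyoxal disposal, were the other least different genes. Gsto2, the neighbour of Gsto1, stood at 0.859 and 6.64 CPM, under the limit in both libraries.

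**Figure D3:**
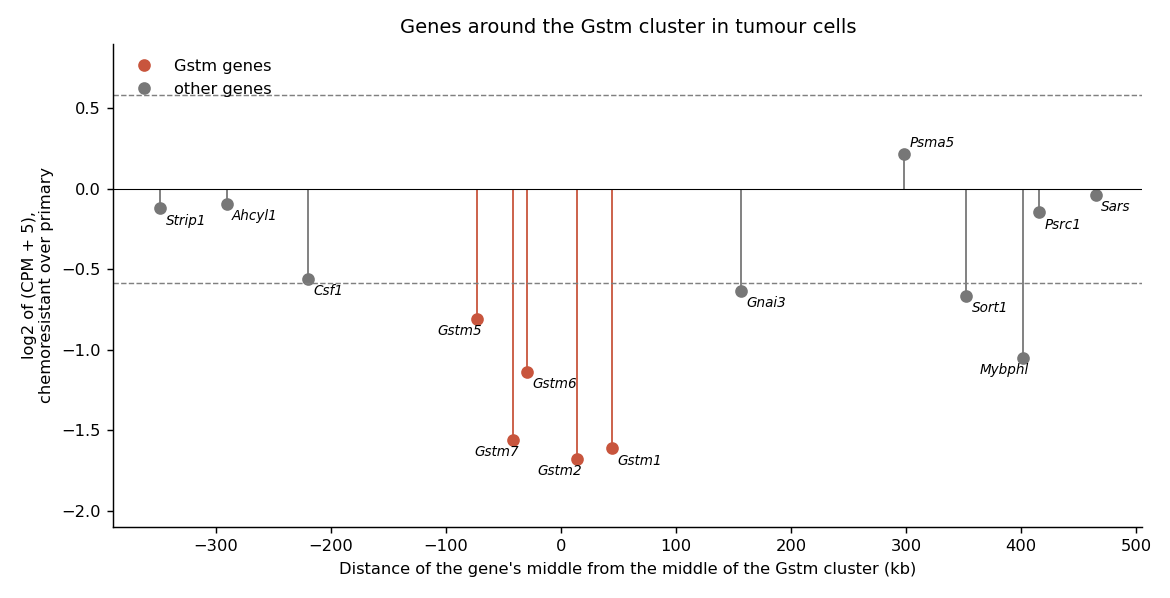
Log2 ratio of (CPM + 5) in tumour cells for genes within 500 kb of the Gstm cluster that reached 10 CPM, placed by distance from its middle, red for Gstm genes and grey for others, with dashed lines at 1.5-fold. All 5 Gstm genes shown are lower in the chemoresistant library, and 3 of 9 other genes are, beside 10.8% of all genes tested.

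Of the 7 Gstm genes of chromosome 3, 5 were tested (Gstm1, Gstm2, Gstm5, Gstm6 and Gstm7) and all 5 were lower, with Gstm3 and Gstm4 under 10 CPM. Of 9 other tested genes within 500 kb of the cluster 3 were lower (Mybphl 2.07-fold, Sort1 1.59-fold and Gnai3 1.55-fold) and 6 within 1.5-fold, among them Csf1 (46.5 and 29.99 CPM, 1.47-fold lower), Psma5 and Ahcyl1. Of all genes tested in tumour cells 10.8% were lower.

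Gstm1 and Gstm2 share little sequence where these libraries read. In the last 500 bases of the longest transcripts the longest run the pair shares is 11 bases, while Gstm1 and Gstm3 share a run of 53. None of 411 possible reads of 90 bases from either end is found whole in the longest transcript of another Gstm gene. For Gstp1 and Gstp2 the longest shared run is 369 bases and 68.1% of such reads are found in both, so the Gstp1 level is uncertain.

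Over the 18 sums of class and library with at least 50 cells, Gstm2 was the gene most like Gstm1 (Pearson r = 0.976 of log2(CPM + 5), among 8150 genes of at least 50 CPM in a sum), followed by Inha (0.955), a subunit of inhibin, and Etnk2 (0.952). For Gstm2 the list was Gstm1, Inha (0.960) and Atp1b2 (0.945). Gsto1 was most like Cox5a (0.871), Cox7b (0.819) and Sdhd (0.818), all of the mitochondrial respiratory chain, and Mgst2 most like H2-Q2 (0.803), Elovl7 (0.783) and Chchd7 (0.782). Gsto1 and Gstm1 gave -0.18 and Gsto1 and Mgst2 0.42. These sums share libraries and differ in depth, and the values are a description.

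Within single chemoresistant tumour cells Gsto1 was found more often where Gstm1 was scarce. Each cell was thinned to 2000 UMIs so that depth does not set the shares, which left 610 primary and 2632 chemoresistant tumour cells. Gstm1 then had a UMI in 93.3% of primary and 72.3% of chemoresistant cells, and at most 69 and 39 UMIs in a cell. Gsto1 had a UMI in 1.48% (0.677 to 2.78%) and 8.81% (7.76 to 9.96%), with at most 1 and 5 UMIs in a cell. In the chemoresistant library 44 cells had 2 or more Gsto1 UMIs, and its variance over the mean was 1.44, against 1.07 for Mgst2 and 5.39 for Gstm1. Counting error alone gives 1, so Gsto1 and Gstm1 varied more between cells than the Poisson intervals allow for.

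Among chemoresistant tumour cells with 0 Gstm1 UMIs, 16.0% had a Gsto1 UMI (117 of 729, 13.5 to 18.9%). The share was 9.06% (76 of 839, 7.20 to 11.2%) at 1 to 2 Gstm1 UMIs and 3.67% (39 of 1064, 2.62 to 4.98%) at 3 or more. The 3 intervals do not overlap. Over 20 further random draws of the thinning the shares averaged 15.6% (13.3 to 17.7% across draws), 8.41% (6.54 to 9.83%) and 4.06% (3.25 to 5.20%). Split by Gstm2 the shares were 12.9% (11.05 to 14.98%), 6.42% (4.98 to 8.12%) and 3.65% (2.14 to 5.78%). In the primary library 2 of 41 cells with 0 Gstm1 UMIs and 6 of 485 with 3 or more had a Gsto1 UMI, 4.88% (0.596 to 16.5%) and 1.24% (0.455 to 2.67%), intervals that overlap. Over the 20 draws these primary shares averaged 1.27% and 1.26%.

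The thinned Mgst2 shares did not separate by Gstm1 or Gstm2. Its share in chemoresistant tumour cells was 5.62% (4.07 to 7.55%), 6.20% (4.66 to 8.05%) and 5.26% (3.9999 to 6.78%) at 0, 1 to 2 and 3 or more Gstm1 UMIs, and 6.50% (5.16 to 8.07%), 4.71% (3.48 to 6.22%) and 5.58% (3.68 to 8.07%) by Gstm2. All of these intervals overlap. Over the 20 draws the Mgst2 shares averaged 6.40%, 5.72% and 5.19% from 0 to 3 or more Gstm1 UMIs, and 6.19%, 5.64% and 4.55% by Gstm2, with overlapping ranges. Gsto1 was found in 8.54% (7.47 to 9.71%) of cells without and 12.9% (7.86 to 19.7%) of cells with 1 Mgst2 UMI.

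**Figure D4:**
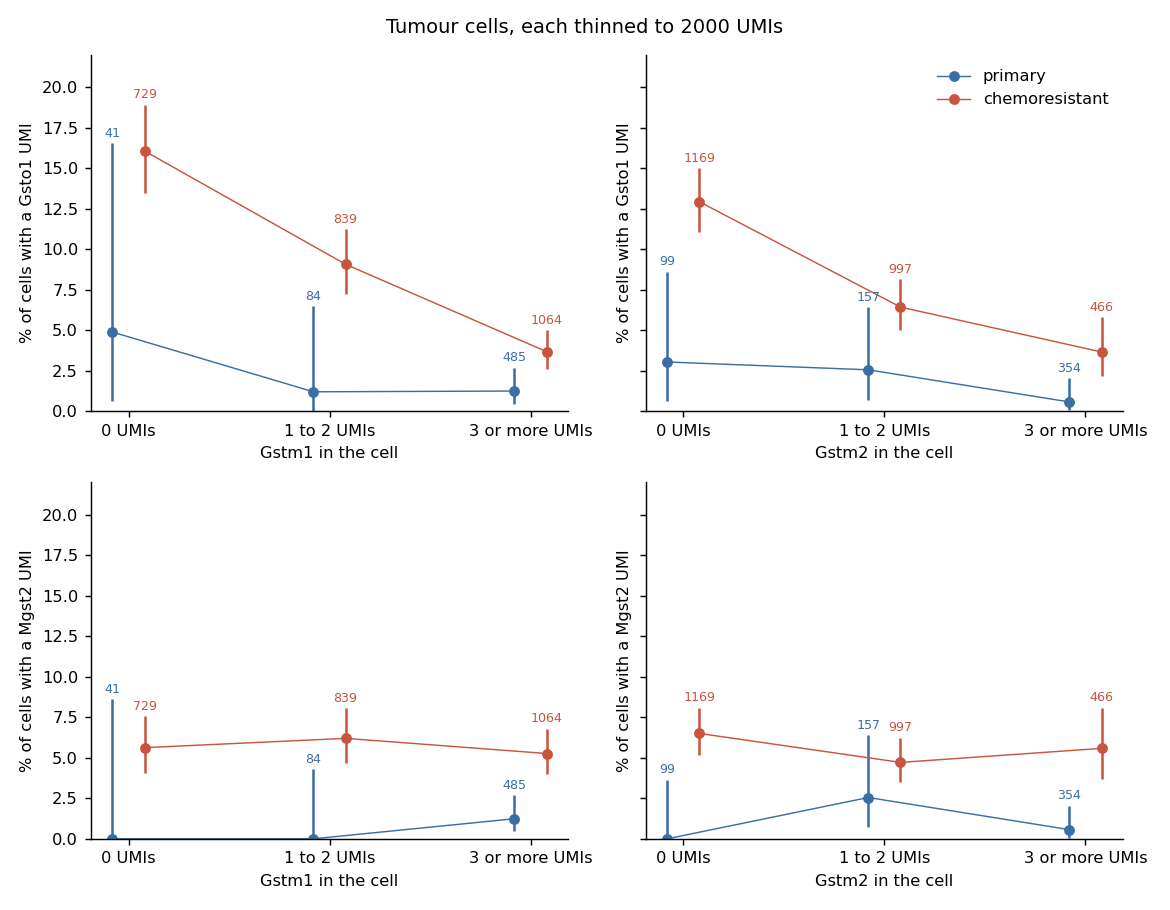
Share of tumour cells with a Gsto1 UMI (top) or Mgst2 UMI (bottom) at 3 levels of Gstm1 (left) or Gstm2 (right), each cell thinned to 2000 UMIs, blue primary and red chemoresistant, with 95% Clopper-Pearson bars and the number of cells above each. The chemoresistant Gsto1 share goes from 16.0% to 3.67% across Gstm1 levels, while the chemoresistant Mgst2 shares lie between 4.71% and 6.50% with overlapping bars.

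The full-depth counts gave the same order for Gsto1. In chemoresistant tumour cells ranked by Gstm1 CPM and cut into 3 equal groups, Gsto1 stood at 114 CPM (110.2 to 118) in the lowest, 44.3 CPM (41.8 to 46.9) in the middle and 23.4 CPM (21.3 to 25.7) in the highest group. In primary tumour cells it stood at 7.41 CPM (5.81 to 9.32), 5.08 CPM (3.74 to 6.73) and 6.56 CPM (4.85 to 8.67), which overlap. Mgst2 in the chemoresistant groups stood at 36.0 CPM (33.7 to 38.4), 34.3 CPM (32.1 to 36.6) and 29.8 CPM (27.4 to 32.4). At full depth its lowest and highest groups did not overlap, over a smaller range than for Gsto1. These intervals leave out the spread between cells, and differences between the groups were not tested against it. The lowest primary group, at 1236 CPM of Gstm1, had Gsto1 at 7.41 CPM, while the middle chemoresistant group, at 929 CPM of Gstm1, had 44.3 CPM.

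Of the 1902 genes with at least 100 CPM, 7.15% were at least 1.5-fold lower and 5.94% higher in cells with 3 or more Gstm1 UMIs than in cells with 0. Gsto1 stood at 18.8 against 109 CPM, 4.79-fold lower. It passed the 100 CPM minimum only through the cells with 0 Gstm1 UMIs, so its rank among these genes is not read. Gstm2 had the largest difference upward (1343 against 178 CPM, 7.35-fold higher). Gsta4, Gstp1 and Mgst1 were within 1.5-fold.

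Gsta4 was higher and Mgst1 lower where Gsto1 was found. In chemoresistant tumour cells with 0, 1 and 2 or more Gsto1 UMIs, Gsta4 stood at 199 CPM (186 to 212), 574 CPM (500 to 656) and 739 CPM (570 to 941). Mgst1 went the other way, at 1236 CPM (1205 to 1268), 774 CPM (688 to 868) and 364 CPM (249 to 513). Gstm1 stood at 1617 CPM with 0 and 809 CPM with 1 Gsto1 UMI, with an interval of 157 to 379 CPM at 2 or more, and Gstm2 at 750.2, 351 and 216 CPM. Gstp1 stood at 104, 98.4 and 79.5 CPM with overlapping intervals. With all Gsto1-positive cells together (232 against 2400), Gsta4 was 2.997-fold higher and Gstm1 2.29-fold, Gstm2 2.29-fold and Mgst1 1.77-fold lower, where 6.71% of 1894 genes of at least 100 CPM were higher and 9.13% lower. Between 0 and 3 or more Gstm1 UMIs Gsta4 was within 1.5-fold (242 and 230.3 CPM).

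**Figure D5:**
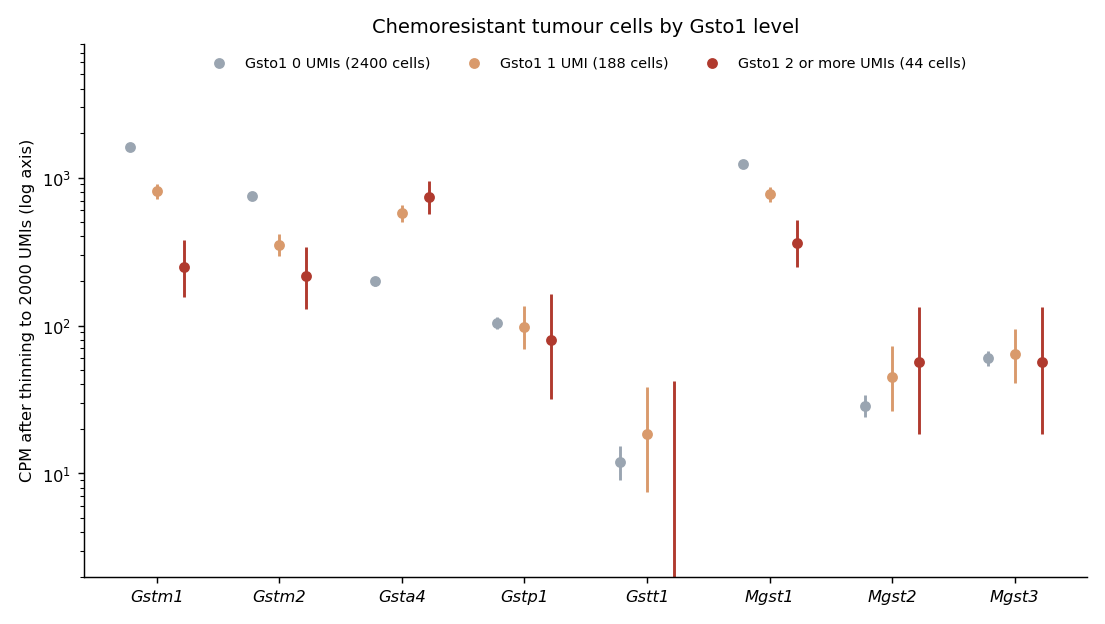
Level of the other 8 transferases (CPM after thinning to 2000 UMIs, log axis) in chemoresistant tumour cells with 0, 1 and 2 or more Gsto1 UMIs, with 95% Poisson bars. Gstm1, Gstm2 and Mgst1 step down and Gsta4 steps up from 199 to 739 CPM, while a bar without a point (Gstt1) marks a count of 0.

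The genes of at least 100 CPM most raised in Gsto1-positive cells were Sprr1a (23.5 to 166 CPM), a cornified-envelope protein of stressed epithelia, Basp1 (60.8 to 293 CPM) and Dclk1 (43.8 to 213 CPM). Those most reduced were the globin genes Hba-a2 (310.2 to 43.1 CPM) and Hbb-bt (258 to 36.6 CPM), then Ctnna2 (298 to 51.7 CPM) and Kcnd2 (1446 to 313 CPM). The globin genes Hba-a1 (436 to 92.7 CPM) and Hbb-bs (1061 to 252 CPM) came next. Kcnd2 headed the leading genes of the tumour class. The part of free RNA and of host mesothelial cells in the Gsto1 split was not tested. The genes above were named by rank after their values were seen. All but Kcnd2 and Hbb-bs were under 100 CPM in the group where they were lower, so they passed the minimum only through the other.

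The summed phagocyte markers stood at 366 CPM in cells with 0, 356 CPM with 1 and 409 CPM with 2 or more Gsto1 UMIs (16, 13 and 10 of 16 markers above 0), and the 22 tumour markers at 4924, 4918 and 5068 CPM. At 0, 1 to 2 and 3 or more Gstm1 UMIs the phagocyte markers stood at 422, 369 and 325 CPM. The tumour markers stood at 5370, 5170 and 4429 CPM in the same order. The part of phagocyte RNA in the Gstm1 split was not tested. Some other lists were higher with Gsto1: dendritic markers stood at 59.8, 69.1 and 148 CPM (11, 4 and 3 of 15 above 0), plasma cell markers at 127, 165 and 205 CPM (8, 7 and 4 of 10) and mast cell or basophil markers at 52.7, 165 and 159 CPM (2, 1 and 1 of 8). B cell markers rose as well, at 26.25, 39.9 and 45.5 CPM. Pancreatic acinar markers fell, at 71.7, 34.6 and 22.7 CPM, and natural killer markers fell too, at 4.375, 2.66 and 0 CPM. Chemoresistant dendritic cells held Gsto1 at 57.6 CPM, and the part of these markers' cells in the Gsto1 split was not tested. The median depth before thinning was 21596.5, 31296.5 and 24009.5 UMIs at 0, 1 and 2 or more Gsto1 UMIs, and the median mitochondrial share 3.92%, 2.92% and 2.79%. Averaged over the 20 draws, the Gsto1 share at 0 and at 3 or more Gstm1 UMIs was 13.1% and 3.15% in cells below the median depth and 17.7% and 5.26% in cells above it. It was 15.3% and 3.54% in cells below the median phagocyte marker share. It was 23.1% and 5.58% among cells with a UMI of Mki67, Top2a or Cdk1 and 11.95% and 3.72% among cells without. The order was the same in each of these groups of cells.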

How the data were processed

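The deposited values are raw UMI counts, obtained by the authors on mm10 (per the submitters' processing notes) using Cell Ranger 8.0.1 (per the file headers), from Chromium 3' v3 libraries per the labels' protocols. The totals were 141334623 UMIs in 14390 primary and 158118781 in 16390 chemoresistant barcodes. Barcodes with at least 500 UMIs, 250 genes and at most 20% mitochondrial UMIs were kept. Scrublet's automatic threshold marked 304 and 0 barcodes, so the highest-scoring barcodes were removed at the same rate (0.8% per 1000 barcodes) in both libraries, 1316 and 1778 barcodes. A cell's class was the marker list with the highest mean log count per 10000, with at least 3 markers detected and a score 1.5 times the second. This scoring replaced a first one, after the data were seen, because that left deeply sequenced tumour cells unassigned; the 100 CPM minimum for splits within tumour cells was also raised after values were seen. Counts were summed per class and library and scaled to a total of 1000000. Members, lists and markers were chosen with earlier results of these data known. The text names all 9 members, other listed genes at least 1.5-fold different, the 4 least different with at least 50 CPM, and the 3 genes most like each of 4 members. The fold rule and the thinning were tested on simulated data. Alternatives changed the added CPM, filters, scaling, class margin, doublets and cell subsets. Scanpy 1.11.5, numpy and scipy were used.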

Additional observations from a re-analysis of the deposited data

How the results depend on the processing

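Over 16 alternatives for tumour cells, 3 of them chosen after seeing the data (cells below the median phagocyte marker share, the highest-scoring class with no margin, and cells of 10000 to 40000 UMIs), the count of members higher stayed between 2 and 3 and the count lower between 2 and 3. The log2 ratio ran from 2.17 to 3.15 for Gsto1, from 1.71 to 2.49 for Mgst2, from -1.79 to -1.36 for Gstm1 and from -1.87 to -1.21 for Gstm2, all past 1.5-fold. The median log2 ratio of all genes was -0.12, and centring on it raised every ratio by that size. Mgst1 (0.67 centred, 0.55 as reported), Gsta4 (-0.63 among cells with no phagocyte marker UMI, 0.25 as reported) and Gstt1 (-1.11 among cells of 10000 to 40000 UMIs, 2.13 among cells with no phagocyte marker UMI, -0.45 as reported) crossed the limit in some settings. The lowest Mgst1 ratio was -0.38, within the limit but of opposite sign. Of the other glutathione genes, 5 were higher in place of 3 with ratios centred on the median gene. Among cells with no phagocyte marker UMI 6 were higher and 11 lower in place of 3 and 5, but that setting left 9 primary cells. The gap in the Gsto1 share between 3 or more and 0 Gstm1 UMIs, -12.4 percentage points, was -5.20 with thinning to 1000 UMIs and -23.6 with thinning to 4000, since the share itself scales with the UMIs kept. It lay between -13.2 and -10.3 in the other 4 settings, of which cells with no phagocyte marker UMI (21 and 49 cells) gave overlapping intervals. The tumour class held the highest level in 9 of 18 cases with doublets kept and 11 with the stricter margin. No paired analysis was possible because each group is 1 library, and no library could be left out. Depth limits Mgst2, Gstt1 and Gsto1 in single cells.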
